A study of Homo sapiens with 8 samples.

Results

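The genes of the axon guidance families were examined in 2 breast epithelial cell lines with and without overexpression of HOTAIR: ephrins and their Eph receptors, semaphorins and their plexin and neuropilin receptors, slits and their ROBO receptors, and netrins with the UNC5 receptors. Members were chosen by gene symbol alone, leaving out antisense and divergent transcripts (of which 1, SEMA3F-AS1, was in the table). This gave 56 of the 13771 genes measured. They comprised 11 Eph receptors, 7 ephrins, 6 class 3 semaphorins, 11 membrane-bound semaphorins (classes 4 to 7), 7 plexins, 2 neuropilins, 2 slits, 4 ROBO receptors, 2 netrins and 2 UNC5 receptors, together with 2 genes, UNC50 and UNC5CL, whose symbols match by spelling. UNC50 encodes a membrane protein that is no netrin receptor, and UNC5CL encodes a protein related to the intracellular end of the UNC5 receptors. Of 71 annotated protein-coding symbols of these families, 15 were not in the table (among them EPHA5, EPHA7, PLXNC1, SLIT1 and UNC5A) and are not analysed here.

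Libraries for RNA-seq came from 4 groups, with 2 per group: MCF10A pCDH-empty, MCF10A pCDH-HOTAIR, DCIS.COM pCDH-empty and DCIS.COM pCDH-HOTAIR. MCF10A is a non-tumorigenic human breast epithelial line, DCIS.COM descends from the MCF10A lineage and models ductal carcinoma in situ, and HOTAIR is a long non-coding RNA of the HOXC cluster that binds chromatin-modifying complexes. All 4 groups carried a stably integrated pCDH lentiviral vector, with or without HOTAIR, and all were selected in puromycin at 10 µg/ml. Both lines grew in DMEM/F-12 with horse serum (5%), to which EGF, hydrocortisone, insulin and cholera toxin were added for MCF10A only, so that cell line and growth medium cannot be told apart. The labels do not say that the libraries of a group came from separate cultures, and p-values measure the spread between libraries.

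Guidance ligands were named for steering growing axons, and most also act in epithelia and blood vessels. Ephrins are held on the cell surface and signal to Eph receptor tyrosine kinases on touching cells, often in both directions, which sorts cells and sets tissue boundaries. Class 3 semaphorins are secreted and bind neuropilins, which signal through plexins, whereas membrane-bound semaphorins mostly bind plexins directly. Slits bind ROBO receptors and netrins bind DCC, neogenin and UNC5 receptors. In the mammary gland, slit, netrin, semaphorin and Eph signals are known for their parts in branching, in the adhesion of the epithelial layers and in cell migration.

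Recovered depth was 19306864 to 34884841 reads per library, of which the 56 members took 0.250% to 0.301%. HOTAIR followed the labels, with 45 and 40 reads against 4614 and 4827 in MCF10A and 119 and 140 against 7166 and 6385 in DCIS.COM. All 8 basal and all 5 epithelial markers were in the table. The basal markers summed to 16280 to 18670 CPM in MCF10A and 4804 to 5523 CPM in DCIS.COM, and the epithelial markers to 1674 to 1815 CPM and 4953 to 6319 CPM. Single genes did not all follow these sums. By the calls defined below, 2 basal markers (ITGB4 and TP63) were higher and 5 lower in DCIS.COM with the empty vector, and 3 epithelial markers were higher and 1 lower. With HOTAIR these counts were 2 and 5, and 3 and 0. Of the markers of other cells, 1 of 6 fibroblast, 1 of 6 endothelial, 1 of 6 neuronal and 2 of 5 leukocyte genes were in the table. ESR1 was the 1 of 2 luminal hormone receptors in the table, at 2.06 to 3.23 CPM. None of the other lists summed to more than 47.1 CPM in any library. Of 10 glucocorticoid-induced genes, all were lower in DCIS.COM with the empty vector and 9 with the HOTAIR vector, with sums of 2061 to 2114 CPM in MCF10A against 256 to 335 CPM in DCIS.COM. Of 8 cAMP-induced genes, 3 were higher and 2 lower with the empty vector, and 4 and 2 with HOTAIR. Among all genes, 22.5% were called higher and 23.8% lower with the empty vector, and 22% and 21.7% with HOTAIR. The glucocorticoid-induced ZBTB16 passed the table's filter, given below, through MCF10A alone, and the cAMP-induced FOSB through DCIS.COM alone. The direction of ZBTB16 and FOSB was thus built into their selection. What part the differences in markers and induced genes had in the values of the guidance genes was not tested.

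The cell lines differed in most guidance genes. In bulk libraries, fewer cells with a transcript and less of it per cell cannot be told apart. With the empty vector, 40 of the 56 members were called (limma, fold change of 1.5 or more at a Benjamini-Hochberg adjusted p under 0.05), 23 higher and 17 lower in DCIS.COM, where 46.3% of all genes were called (22.5% higher and 23.8% lower). With the HOTAIR vector, whose group means come from the 4 other libraries, 44 members were called, 25 higher and 19 lower, against 43.7% of all genes (22% and 21.7%). All 40 members called with the empty vector were called in the same direction with HOTAIR (38.4% of all genes were called in both, in the same direction). EFNB3, PLXNB2, PLXND1 and SEMA4F were called with the HOTAIR vector only, and 12 members were called in neither. The median absolute log2 fold change was 1.31 over the members and 0.54 over all genes with the empty vector, and 1.44 and 0.50 with HOTAIR. With the empty vector, 10 members (5.53% of all genes) had an absolute log2 fold change of at least 4 and 7 members (1.88%) of at least 6. The table's filter on low values bears on these counts, and 8 of the 10 passed it in 1 cell line only. Over the 56 members, libraries lay 1.60 to 3.39 apart within a cell line and 23.6 to 24.3 apart between the lines (Euclidean distance in log2 CPM). Members that passed the filter in 1 cell line only are part of these distances and widen those between the lines. Distances over the other members alone were not taken.

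**Figure D1:**
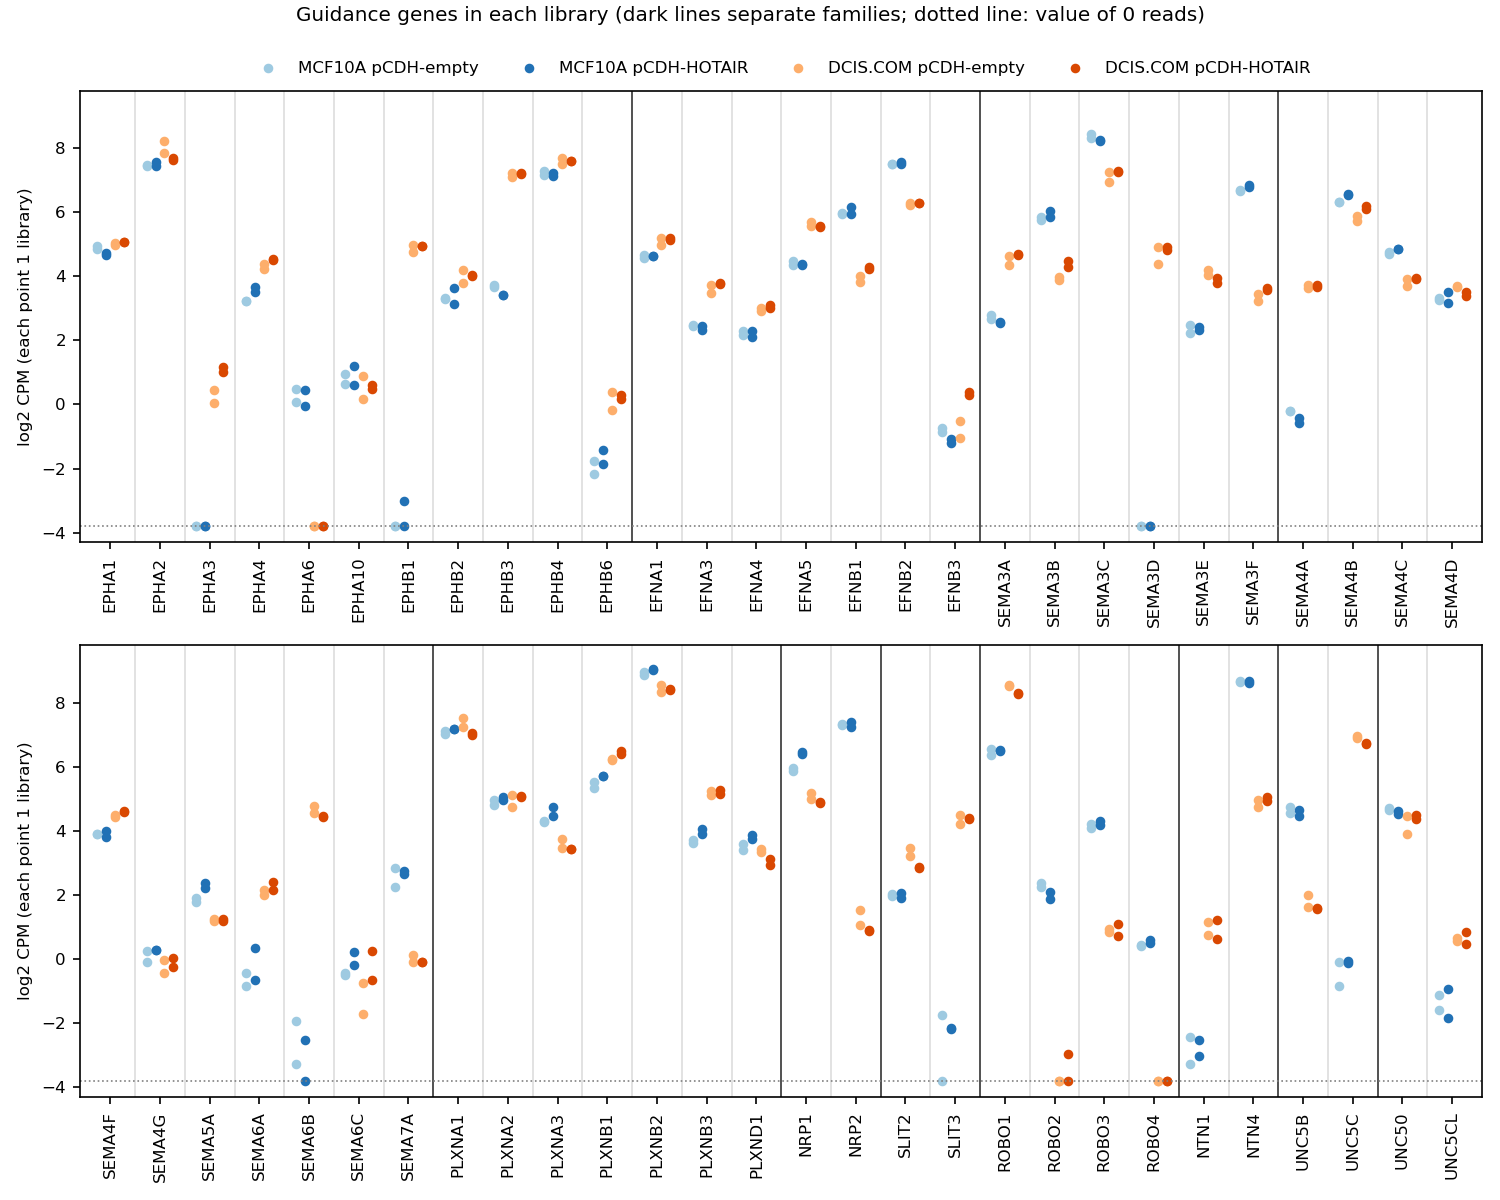
Level of the 56 members in each library, as deposited log2 CPM (vertical axis), 1 point per library, coloured by cell line and vector. Points of the same cell line lie together for most genes, and EPHA3 and SEMA3D lie on the line of 0 reads in all 4 MCF10A libraries, as EPHA6 and ROBO4 do in all 4 DCIS.COM libraries.

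The table holds genes with a value above 0.5 CPM in at least 2 libraries. Of the members, 45 reached this level in both cell lines, 8 in DCIS.COM only (EPHA3, EPHB1, EPHB6, NTN1, SEMA3D, SEMA6B, SLIT3 and UNC5CL) and 3 in MCF10A only (EPHA6, ROBO2 and ROBO4). These 11 members entered the table through a single cell line, as 3.38% and 3.29% of all genes did through DCIS.COM and MCF10A alone, so that a difference between the lines was built into their selection. Among the 45 members above this level in both lines, 29 were called with the empty vector and 33 with HOTAIR (64.4% and 73.3%, against 42.5% and 39.7% of the 12852 genes of this kind), with a median absolute log2 fold change of 0.92 and 1.09 (0.49 and 0.46 over these genes). Of the 45, only UNC5C and NRP2 had an absolute log2 fold change of at least 4 with the empty vector, both also of at least 6, against 1.51% and 0.288% of these genes. The 45 include EFNB3, which reached the level in MCF10A only with the prior of the deposited values (0.0717 CPM) included. Without the prior, EFNB3 had 0.48 and 0.53 CPM in MCF10A pCDH-empty and 0.36 and 0.40 in MCF10A pCDH-HOTAIR. No test of the difference between the lines is given for the 11 others by name. They count among the called members of their families below, and some have a counting interval, which bears only on the size of a ratio. Neither the count nor the interval is evidence of a difference, since their selection built it in. Of the 11 others, 6 had 0 reads in both libraries of at least 1 group of the other line. Their promoters are shown because a whole group of the other line had no reads. The first 250 bases before the RefSeq start are given 5′ to 3′ on the gene's strand, with CG dinucleotides in capitals. RefSeq's sequences are those of GRCh38, and each was found at exactly 1 place on its chromosome in GRCh37, the build of the files. These places are chr3:134513852-134514101 (plus strand) for EPHB1, chr7:84816373-84816622 (minus) for SEMA3D, chr3:89156521-89156770 (plus) for EPHA3, chr3:96533188-96533437 (plus) for EPHA6, chr3:76359781-76360030 (plus) for ROBO2 and chr11:124767762-124768011 (minus) for ROBO4. The windows of EPHB1, SEMA3D and EPHA3 end at the annotated start of their gene, whereas those of ROBO2, ROBO4 and EPHA6 lie partly or wholly within the annotated span of theirs, which has starts further upstream. EPHB1, SEMA3D and EPHA3 had reads in DCIS.COM, and EPHA6, ROBO2 and ROBO4 in MCF10A. In the other line, EPHB1 had 1 read in MCF10A pCDH-HOTAIR and ROBO2 had 2 in DCIS.COM pCDH-HOTAIR.
EPHB1: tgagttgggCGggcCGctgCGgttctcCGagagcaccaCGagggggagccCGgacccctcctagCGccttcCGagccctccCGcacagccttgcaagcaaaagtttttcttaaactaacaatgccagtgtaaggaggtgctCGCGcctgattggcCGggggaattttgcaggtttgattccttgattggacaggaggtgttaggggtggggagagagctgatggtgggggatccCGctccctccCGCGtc
SEMA3D: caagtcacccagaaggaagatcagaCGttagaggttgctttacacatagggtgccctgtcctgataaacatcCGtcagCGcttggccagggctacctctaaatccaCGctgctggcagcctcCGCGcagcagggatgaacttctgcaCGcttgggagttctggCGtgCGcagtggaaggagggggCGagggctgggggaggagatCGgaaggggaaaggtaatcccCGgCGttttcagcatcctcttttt
EPHA3: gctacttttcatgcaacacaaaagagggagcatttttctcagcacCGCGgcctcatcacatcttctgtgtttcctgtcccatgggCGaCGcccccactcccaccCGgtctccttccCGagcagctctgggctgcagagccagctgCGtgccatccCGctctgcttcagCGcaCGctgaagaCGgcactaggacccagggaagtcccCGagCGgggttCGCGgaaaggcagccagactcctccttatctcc
EPHA6: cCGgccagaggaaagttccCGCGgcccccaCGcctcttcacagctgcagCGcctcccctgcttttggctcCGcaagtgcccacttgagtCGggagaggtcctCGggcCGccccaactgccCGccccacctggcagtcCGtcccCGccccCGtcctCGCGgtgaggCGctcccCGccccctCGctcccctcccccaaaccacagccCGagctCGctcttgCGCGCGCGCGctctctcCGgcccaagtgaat
ROBO2: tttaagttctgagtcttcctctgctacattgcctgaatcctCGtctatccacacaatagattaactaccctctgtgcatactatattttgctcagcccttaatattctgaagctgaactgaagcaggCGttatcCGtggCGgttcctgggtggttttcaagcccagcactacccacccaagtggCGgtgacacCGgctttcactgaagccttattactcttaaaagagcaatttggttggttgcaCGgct
ROBO4: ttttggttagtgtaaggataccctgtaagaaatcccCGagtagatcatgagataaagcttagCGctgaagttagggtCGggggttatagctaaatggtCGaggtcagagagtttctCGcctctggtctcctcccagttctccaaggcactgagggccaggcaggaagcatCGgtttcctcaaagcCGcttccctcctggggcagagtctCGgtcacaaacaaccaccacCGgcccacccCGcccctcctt

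These 6 windows held 15 CG dinucleotides for EPHB1, 13 for SEMA3D, 15 for EPHA3, 26 for EPHA6, 7 for ROBO2 and 10 for ROBO4. The members read almost only in DCIS.COM and those read almost only in MCF10A therefore overlapped in CG count. RefSeq gave a promoter for 48 of the 56 members, with a median of 17 CG dinucleotides (2 to 46), against a median of 11 over 27305 promoters. Those 27305 leave out chromosome 8 and include genes that were not measured here, whereas all members were measured. The members and all windows are thus unlike sets. On either strand, CACCTG, an E-box bound by EMT repressors, was found in 8 member windows (16.7%) and in 17.5% of all windows, and ACGTG, the core of the hypoxia response element, in 3 (6.25%) and in 18.7%. TGANTCA, the AP-1 site, was found in no member window and in 6.60% of all. These are counts of letters and not of bound sites. EPHB1 and EPHA6 share exonic sequence with an unnamed gene on the same strand, and ROBO2, ROBO4, NRP2 and SLIT3 with one on the other strand.

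Among the Eph receptors, 6 of 11 were higher in DCIS.COM with either vector, 1 was lower and 4 were not called. Of all genes, 22.5% were called higher and 23.8% lower with the empty vector, and 22% and 21.7% with HOTAIR. EPHA3, EPHB1 and EPHB6, among the higher ones, and EPHA6, the lower one, entered the table through a single cell line. Their direction was thus built into their selection, which leaves EPHA4, EPHB2 and EPHB3. EPHB3 (chr3:184279573-184300196), a receptor of B-type ephrins known from sorting epithelial cells in the intestine, had 3.72 and 3.67 log2 CPM in the empty-vector libraries of MCF10A and 3.43 and 3.43 in those with HOTAIR, and 7.24 and 7.10 log2 CPM in the empty-vector libraries of DCIS.COM and 7.22 and 7.19 in those with HOTAIR. All 4 DCIS.COM libraries were above all 4 MCF10A libraries, by more than the whole range within either line. EPHB3 was 11.1-fold higher with the empty vector (log2 fold change 3.48, SE 0.07, adjusted p = 1.51e-08) and 13.7-fold higher with HOTAIR (adjusted p = 1.11e-08). EPHB1 (chr3:134514102-134979309) had in MCF10A 0 and 0 reads with the empty vector and 1 and 0 with HOTAIR, and in DCIS.COM 942 and 733 reads with the empty vector and 1107 and 1041 with HOTAIR. MCF10A thus held a total of 1 read in 4 libraries. EPHB1 was at least 567-fold higher in DCIS.COM with the empty vector, counting 3 reads over both libraries as the floor of the group at 0, and the ratio of DCIS.COM over MCF10A with HOTAIR was 1223 (95% counting interval 219 to 48340). Such intervals and floors cover counting error only. EPHA3 (chr3:89156771-89531284), a receptor known from embryonic and stromal tissue, had 0 and 0 reads in MCF10A pCDH-empty, 0 and 0 in MCF10A pCDH-HOTAIR, 29 and 35 in DCIS.COM pCDH-empty and 78 and 66 in DCIS.COM pCDH-HOTAIR. It was at least 21.7-fold higher in DCIS.COM with the empty vector and at least 27.3-fold higher with HOTAIR.

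EPHA6 (chr3:96533425-97480376) was the Eph receptor that was lower in DCIS.COM, with 41 and 26 reads in the empty-vector libraries of MCF10A and 25 and 18 in those with HOTAIR, and 0 and 0 reads in the empty-vector libraries of DCIS.COM and 0 and 0 in those with HOTAIR. It was at least 22.0-fold and at least 25.2-fold lower with the empty and the HOTAIR vector. EPHA4 was higher in DCIS.COM by a log2 fold change of 1.08 (SE 0.10) with the empty vector, EPHB6, a receptor without kinase activity, by 2.07 and EPHB2 by 0.70 (SE 0.18). EPHB6 had 4 to 7 reads in the MCF10A libraries and 22 to 41 in DCIS.COM. EPHA2 led the Eph receptors per length in every library, with 37.4% to 57.8% of their summed level, and was not called. EPHA2, which binds A-type ephrins and is a major Eph receptor of breast epithelium, had in MCF10A 7.46 and 7.48 log2 CPM with the empty vector and 7.59 and 7.46 with HOTAIR, and in DCIS.COM 8.24 and 7.86 log2 CPM with the empty vector and 7.64 and 7.71 with HOTAIR. DCIS.COM pCDH-empty 1 was the highest of these, and the log2 fold change of DCIS.COM over MCF10A was 0.58 (SE 0.12) with the empty vector and 0.15 (95% interval -0.12 to 0.42) with HOTAIR. EPHB4, the receptor of EFNB2 in vessels and epithelium, differed by 0.37 (SE 0.08, adjusted p = 0.00316), under the fold-change threshold. EPHA1 differed by 0.13 (SE 0.07). EPHA10, a receptor without kinase activity, differed by -0.25 (SE 0.30), and its replicate libraries lay 0.74 apart on the log2 scale in DCIS.COM pCDH-empty. EPHB4 and EPHA1 overlap exons of SLC12A9 and ZYX on the other strand, and whether strand was used in counting is not given in the sources used here.

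Of the 7 ephrins, 3 were higher and 2 lower in DCIS.COM with both vectors (38.4% of all genes were called alike with both). The higher ones were A-type ligands, which have a lipid anchor, and the lower ones B-type ligands, which span the membrane. EFNA3, EFNA4 and EFNA5 were higher in DCIS.COM with both vectors, with log2 fold changes of 1.13, 0.73 and 1.23 with the empty vector, while EFNA1 (0.45, SE 0.09) was under the threshold of fold change. EFNB3, the remaining B-type ligand, had a log2 fold change of 0.02 (SE 0.25) with the empty vector and was higher in DCIS.COM with HOTAIR (1.49, adjusted p = 9.12e-04). Its MCF10A values lay near the level of the table's filter, so that its selection may bear on this difference. EFNB1 and EFNB2 were lower. EFNB1 had 1948 and 1625 reads in MCF10A pCDH-empty, 1205 and 1441 in MCF10A pCDH-HOTAIR, 479 and 375 in DCIS.COM pCDH-empty and 666 and 650 in DCIS.COM pCDH-HOTAIR. It was 4.12-fold lower in DCIS.COM with the empty vector (log2 fold change -2.04, SE 0.10, adjusted p = 6.12e-07) and 3.51-fold lower with HOTAIR. EFNB2 had 7.50 and 7.52 log2 CPM in the empty-vector libraries of MCF10A and 7.52 and 7.56 in those with HOTAIR, and 6.29 and 6.22 log2 CPM in the empty-vector libraries of DCIS.COM and 6.29 and 6.30 in those with HOTAIR. The levels of the cell lines did not overlap, and EFNB2 was 2.39-fold lower with the empty vector (SE of the log2 fold change 0.06, adjusted p = 5.62e-07). EFNA3, EFNA4 and EFNA1 lie in a row on chromosome 1 (155036213 to 155107375), EFNA4 and EFNA3 at a distance of 9283 bases, and a readthrough transcript joins EFNA4 and EFNA3, so that their reads could have been split between them. Per length of exon, EFNB2 led the ephrins in MCF10A with 46.7% to 47.5% of their summed level. In DCIS.COM, EFNA1 led in 3 libraries and EFNB2 in 1, with 26.5% to 29.4%.

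**Figure D2:**
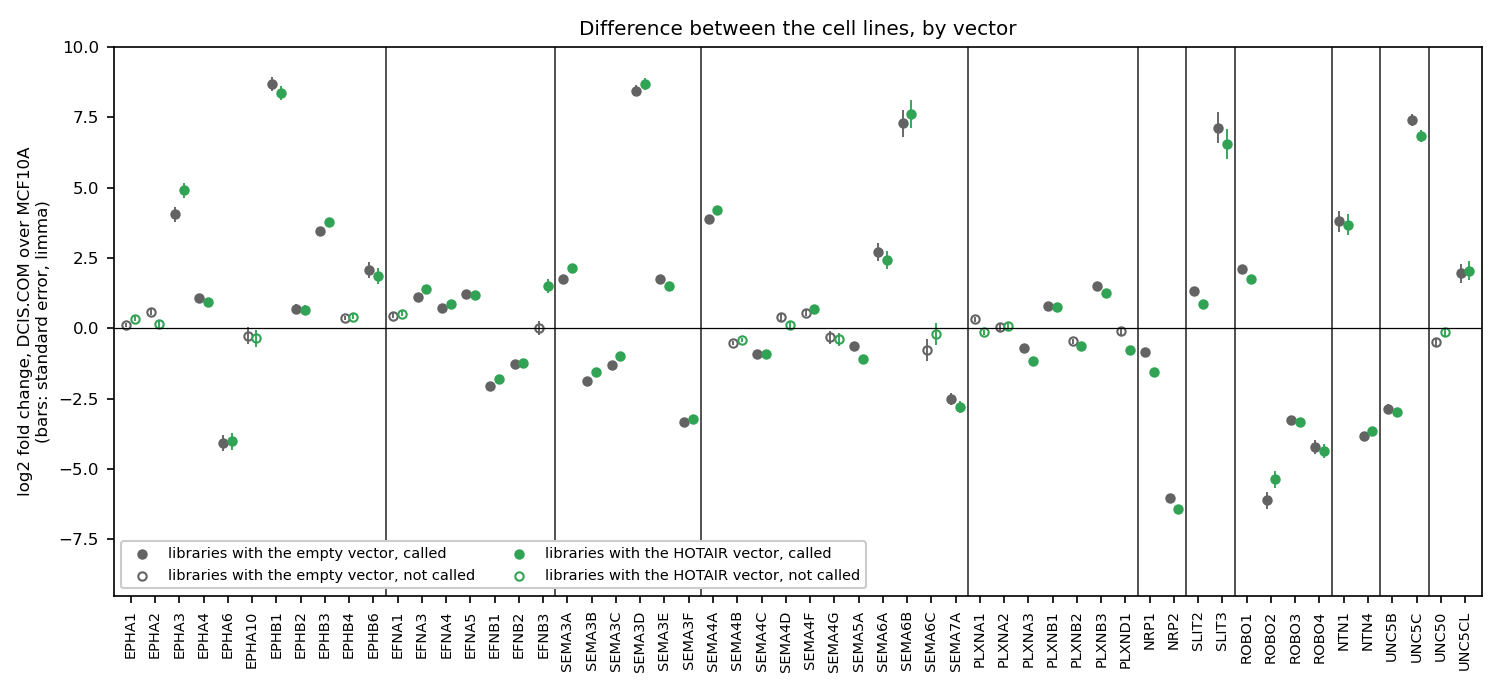
Log2 fold change of DCIS.COM over MCF10A (vertical axis) for the 56 members, in libraries with the empty vector (grey) and with HOTAIR (green), with standard errors from limma. Filled points were called, and the 40 members filled in grey are also filled in green on the same side of 0. Fold changes of genes with 0 reads in a group depend on the prior of the deposited values. Members that entered the table through a single cell line are included.

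All 6 class 3 semaphorins were called with both vectors, 3 higher and 3 lower in DCIS.COM. Of all genes, 22.5% were called higher and 23.8% lower with the empty vector, and 22% and 21.7% with HOTAIR. SEMA3D entered the table through DCIS.COM alone, so that its direction was built into its selection. SEMA3A, SEMA3D and SEMA3E, which lie on the same stretch of chromosome 7 (82992554 to 84816372), were the higher ones. SEMA3D had in MCF10A 0 and 0 reads with the empty vector and 0 and 0 with HOTAIR, and in DCIS.COM 628 and 807 reads with the empty vector and 1078 and 946 with HOTAIR. No read was seen in MCF10A, and SEMA3D was at least 486-fold higher in DCIS.COM with the empty vector and at least 384-fold higher with HOTAIR. SEMA3A, the classical repellent ligand of NRP1, had 2.78 and 2.68 log2 CPM in MCF10A pCDH-empty, 2.58 and 2.56 in MCF10A pCDH-HOTAIR, 4.35 and 4.63 in DCIS.COM pCDH-empty and 4.68 and 4.71 in DCIS.COM pCDH-HOTAIR. It was 3.38-fold higher with the empty vector (adjusted p = 3.52e-06) and 4.38-fold with HOTAIR (adjusted p = 1.22e-06), and SEMA3E, the ligand of PLXND1, was 3.40-fold and 2.83-fold higher.

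SEMA3B and SEMA3F, both known as candidate tumour suppressors of chromosome 3p, lie 78481 bases apart (chr3:50304990-50314977 and chr3:50192478-50226508) and were both lower in DCIS.COM. SEMA3F, a ligand of NRP2, had 6.67 and 6.70 log2 CPM in the empty-vector libraries of MCF10A and 6.86 and 6.79 in those with HOTAIR, and 3.44 and 3.24 log2 CPM in the empty-vector libraries of DCIS.COM and 3.64 and 3.58 in those with HOTAIR. It was 10.2-fold lower with the empty vector (log2 fold change -3.34, SE 0.09, adjusted p = 3.42e-08) and 9.30-fold lower with HOTAIR. SEMA3B had in MCF10A 5.86 and 5.77 log2 CPM with the empty vector and 6.04 and 5.86 with HOTAIR, and in DCIS.COM 3.88 and 3.99 log2 CPM with the empty vector and 4.47 and 4.31 with HOTAIR, a log2 fold change of -1.88 (SE 0.10) and of -1.57 (SE 0.10). Both genes have an antisense gene that shares exonic sequence, so that reads of the pairs are uncertain. SEMA3C was the most abundant class 3 semaphorin in every library, with 57.2% to 65.8% of their level per length. It had 8.33 and 8.44 log2 CPM in MCF10A pCDH-empty, 8.22 and 8.27 in MCF10A pCDH-HOTAIR, 6.93 and 7.25 in DCIS.COM pCDH-empty and 7.25 and 7.29 in DCIS.COM pCDH-HOTAIR and was 2.46-fold lower in DCIS.COM with the empty vector (adjusted p = 9.61e-06) and 1.97-fold lower with HOTAIR. Summed over the family, class 3 semaphorins stood at 85.0 to 89.0 CPM per kb in MCF10A and 31.7 to 39.6 CPM per kb in DCIS.COM.

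The 11 membrane-bound semaphorins held some of the largest differences and 4 members that were called with neither vector. Among them, SEMA6B entered the table through DCIS.COM alone. SEMA6B (chr19:4542605-4581788), a transmembrane ligand of A-type plexins, had 1 and 5 reads in the empty-vector libraries of MCF10A and 0 and 2 in those with HOTAIR, and 831 and 634 reads in the empty-vector libraries of DCIS.COM and 765 and 744 in those with HOTAIR. The MCF10A libraries held 8 reads in all. The ratio of DCIS.COM over MCF10A with HOTAIR was 430 (95% counting interval 119 to 3552), and the log2 fold change with the empty vector was 7.29, resting on 6 MCF10A reads. SEMA4A had in MCF10A -0.20 and -0.22 log2 CPM with the empty vector and -0.43 and -0.57 with HOTAIR, and in DCIS.COM 3.64 and 3.74 log2 CPM with the empty vector and 3.67 and 3.74 with HOTAIR, and was 14.9-fold and 18.5-fold higher in DCIS.COM (adjusted p = 1.16e-07 and 8.39e-08). SEMA6A was 6.54-fold higher with the empty vector (SE of the log2 fold change 0.32). Its MCF10A libraries ranged from -0.84 to 0.35 log2 CPM. SEMA7A, which is anchored by a lipid and binds integrins and PLXNC1, had 2.25 and 2.83 log2 CPM in MCF10A pCDH-empty, 2.66 and 2.74 in MCF10A pCDH-HOTAIR, 0.14 and -0.11 in DCIS.COM pCDH-empty and -0.08 and -0.10 in DCIS.COM pCDH-HOTAIR. It was 5.74-fold lower with the empty vector and 6.91-fold lower with HOTAIR (adjusted p = 1.54e-05 and 8.67e-06).

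SEMA4C (-0.92, SE 0.10) and SEMA5A (-0.63, SE 0.14) were also lower in DCIS.COM with both vectors, in log2 fold change with the empty vector. SEMA4B led this group per length in every library, with 33.5% to 56.6% of its summed level, and stayed under the threshold of fold change (-0.52 with the empty vector and -0.41 with HOTAIR, SE 0.08). SEMA4D, the ligand of PLXNB1, differed by 0.40 (95% interval 0.10 to 0.69) and SEMA4G by -0.32 (-0.86 to 0.22). SEMA6C had 7 to 40 reads per library, and its interval of -1.70 to 0.15 left a difference in either direction possible. Its libraries lay 0.91 apart on the log2 scale in DCIS.COM pCDH-HOTAIR, the widest gap between replicates of any member with at least 50 reads in a group. SEMA4F was called with HOTAIR only, with log2 fold changes of 0.55 (SE 0.09) and 0.70. The sum over the membrane-bound semaphorins was 20.8 to 24.0 CPM per kb in MCF10A and 22.4 to 25.3 in DCIS.COM, so that the groups overlapped although single members differed.

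Of the 7 plexins, 3 were called with both vectors (38.4% of all genes were called alike with both) and 2 more with HOTAIR only. In a family of 7, this count is no result about plexins. PLXNB1 and PLXNB3 were higher in DCIS.COM with both vectors (0.80, SE 0.08, and 1.51, SE 0.10, with the empty vector) and PLXNA3 was lower (-0.69, SE 0.13). PLXNB3 had 3.63 and 3.73 log2 CPM in the empty-vector libraries of MCF10A and 4.05 and 3.91 in those with HOTAIR, and 5.26 and 5.12 log2 CPM in the empty-vector libraries of DCIS.COM and 5.28 and 5.16 in those with HOTAIR. PLXNB3 shares exonic sequence with SRPK3 on the same strand and PLXNA3 with LAGE3 on the other. PLXNB2, a receptor of class 4 semaphorins, was the plexin with the most reads per length in all 8 libraries (59.9% to 74.2% of the plexin sum). It had in MCF10A 8.88 and 8.96 log2 CPM with the empty vector and 9.06 and 9.04 with HOTAIR, and in DCIS.COM 8.57 and 8.35 log2 CPM with the empty vector and 8.43 and 8.40 with HOTAIR and was 1.37-fold lower in DCIS.COM with the empty vector and 1.55-fold with HOTAIR, so that it passed the threshold of 1.5 only in the latter. PLXND1 was also called with HOTAIR only, with log2 fold changes of -0.10 (SE 0.12) and -0.77. PLXNA1 (0.32 and -0.14) and PLXNA2 (0.04 and 0.08) were called with neither.

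Both neuropilins were lower in DCIS.COM. NRP2 (chr2:206546714-206662857), the co-receptor of SEMA3F and of VEGFC, had 7.31 and 7.33 log2 CPM in MCF10A pCDH-empty, 7.39 and 7.26 in MCF10A pCDH-HOTAIR, 1.54 and 1.06 in DCIS.COM pCDH-empty and 0.86 and 0.92 in DCIS.COM pCDH-HOTAIR. In reads this was 3059 to 4954 per library in MCF10A and 54 to 85 in DCIS.COM. NRP2 was 64.9-fold lower with the empty vector (log2 fold change -6.02, SE 0.15, adjusted p = 2.87e-08) and 86.5-fold lower with HOTAIR (adjusted p = 2.30e-08). NRP1, the co-receptor of SEMA3A and VEGFA, had 5.89 and 5.97 log2 CPM in the empty-vector libraries of MCF10A and 6.42 and 6.46 in those with HOTAIR, and 5.18 and 4.99 log2 CPM in the empty-vector libraries of DCIS.COM and 4.90 and 4.87 in those with HOTAIR and was 1.80-fold lower with the empty vector (adjusted p = 3.89e-05) and 2.94-fold lower with HOTAIR (adjusted p = 1.16e-06). Per length of exon, NRP2 made up 59.1% to 69.0% of the neuropilin level in MCF10A, and NRP1 93.9% to 95.4% in DCIS.COM. NRP2 and its ligand SEMA3F were thus both lower in DCIS.COM, and SEMA3A was higher where its co-receptor NRP1 was lower.

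Both slits and ROBO1 were higher in DCIS.COM, and the other ROBO receptors lower. Of these genes, SLIT3, ROBO2 and ROBO4 entered the table through a single cell line. SLIT3 (chr5:168088745-168728143) had in MCF10A 7 and 0 reads with the empty vector and 3 and 3 with HOTAIR, and in DCIS.COM 677 and 493 reads with the empty vector and 744 and 700 with HOTAIR. The log2 fold change was 7.13 with the empty vector and 6.55 with HOTAIR, and its size rests on 13 reads in 4 MCF10A libraries. SLIT2, the best studied slit of the mammary gland, had 1.97 and 2.05 log2 CPM in MCF10A pCDH-empty, 2.07 and 1.90 in MCF10A pCDH-HOTAIR, 3.47 and 3.21 in DCIS.COM pCDH-empty and 2.87 and 2.85 in DCIS.COM pCDH-HOTAIR and was 2.52-fold higher with the empty vector (adjusted p = 4.65e-05) and 1.84-fold with HOTAIR. SLIT2 made up 95.7% to 100% of the slit level per length in MCF10A, whereas SLIT3 made up 60.9% to 69.4% in DCIS.COM. ROBO1, the main slit receptor outside the nervous system, had 6.36 and 6.55 log2 CPM in the empty-vector libraries of MCF10A and 6.51 and 6.54 in those with HOTAIR, and 8.57 and 8.54 log2 CPM in the empty-vector libraries of DCIS.COM and 8.32 and 8.27 in those with HOTAIR. It was 4.28-fold higher in DCIS.COM with the empty vector (adjusted p = 1.30e-07) and 3.42-fold with HOTAIR.

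The other three ROBO genes were lower in DCIS.COM. ROBO2 (chr3:75955846-77699115) had in MCF10A 145 and 136 reads with the empty vector and 70 and 83 with HOTAIR, and in DCIS.COM 0 and 0 reads with the empty vector and 2 and 0 with HOTAIR. It was at least 92.2-fold lower in DCIS.COM with the empty vector, and the ratio with HOTAIR was 134 (95% counting interval 36.6 to 1119). ROBO4, known from blood vessels, had 40 and 33 reads in MCF10A pCDH-empty, 26 and 29 in MCF10A pCDH-HOTAIR, 0 and 0 in DCIS.COM pCDH-empty and 0 and 0 in DCIS.COM pCDH-HOTAIR, and was at least 23.9-fold and at least 32.2-fold lower. The endothelial marker PECAM1 had the opposite order, 0.83 to 1.47 log2 CPM in MCF10A and 3.35 to 3.74 in DCIS.COM, and the other 5 endothelial markers were not in the table. ROBO3, a divergent receptor that does not bind slits with high affinity in mammals, had 4.21 and 4.09 log2 CPM in the empty-vector libraries of MCF10A and 4.19 and 4.30 in those with HOTAIR, and 0.85 and 0.93 log2 CPM in the empty-vector libraries of DCIS.COM and 1.11 and 0.72 in those with HOTAIR and was 9.57-fold and 10.0-fold lower (adjusted p = 5.01e-07 and 4.55e-07). ROBO3 and ROBO4 lie 2219 bases apart on chromosome 11, and ROBO2 and ROBO1, which differed in opposite directions, 947273 bases apart on chromosome 3. ROBO1 held 70.6% to 74.4% of the ROBO level per length in MCF10A and 99.0% to 99.3% in DCIS.COM.

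**Figure D3:**
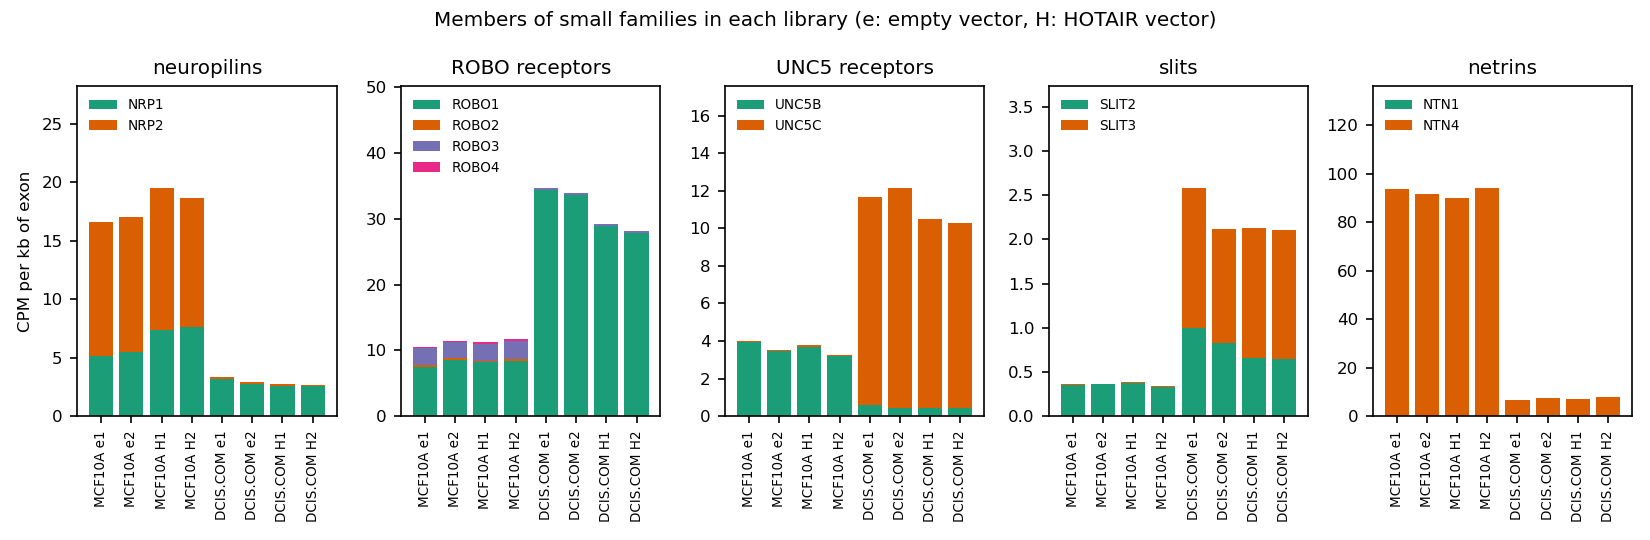
CPM per kb of exon (vertical axis, starting at 0) of the neuropilins, ROBO receptors, UNC5 receptors, slits and netrins in each of the 8 libraries, stacked by gene. NRP2, UNC5B, SLIT2 and NTN4 make up most of their family in MCF10A, and NRP1, UNC5C, SLIT3 and NTN4 in DCIS.COM, with a ROBO sum of 10.6 to 11.7 and 28.1 to 34.6 CPM per kb.

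Netrins and UNC5 receptors each held a gene higher and a gene lower in DCIS.COM. The higher netrin, NTN1, entered the table through DCIS.COM alone. NTN4 (chr12:96051583-96184967), a netrin of basement membranes that binds laminin, had in MCF10A 8.68 and 8.64 log2 CPM with the empty vector and 8.62 and 8.68 with HOTAIR, and in DCIS.COM 4.74 and 4.95 log2 CPM with the empty vector and 4.93 and 5.05 with HOTAIR. It was 14.0-fold lower in DCIS.COM with the empty vector (log2 fold change -3.81, SE 0.08, adjusted p = 1.87e-08) and 12.7-fold lower with HOTAIR. NTN4 had the highest level per length of all 56 members in MCF10A, 90.05 to 93.99 CPM per kb in the 4 libraries, against 6.12 to 7.56 in DCIS.COM. NTN1, the classical netrin, had 1 and 3 reads in MCF10A pCDH-empty, 2 and 1 in MCF10A pCDH-HOTAIR, 65 and 43 in DCIS.COM pCDH-empty and 52 and 75 in DCIS.COM pCDH-HOTAIR. With HOTAIR the ratio was 24.1 (95% counting interval 8.07 to 118), and with the empty vector the log2 fold change was 3.81, resting on 4 MCF10A reads. Despite this, NTN4 kept 94.8% to 96.8% of the netrin level per length in DCIS.COM.

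The UNC5 receptors are dependence receptors, which are held to promote cell death when no netrin is bound. UNC5C (chr4:96083655-96470357) had 15 and 23 reads in the empty-vector libraries of MCF10A and 17 and 17 in those with HOTAIR, and 3570 and 3347 reads in the empty-vector libraries of DCIS.COM and 3830 and 3529 in those with HOTAIR. It was 169-fold higher in DCIS.COM with the empty vector (adjusted p = 5.23e-08) and 114-fold higher with HOTAIR (adjusted p = 7.37e-08). The gene shares exonic sequence with UNC5C-AS1 on the other strand. UNC5B had in MCF10A 4.75 and 4.56 log2 CPM with the empty vector and 4.67 and 4.46 with HOTAIR, and in DCIS.COM 2.01 and 1.61 log2 CPM with the empty vector and 1.57 and 1.60 with HOTAIR and was 7.20-fold and 7.88-fold lower (adjusted p = 1.28e-06 and 1.01e-06). UNC5B made up 97.6% to 98.9% of the UNC5 level per length in MCF10A, and UNC5C 95.05% to 96.4% in DCIS.COM. Of the genes matched by spelling, UNC50 was not called (-0.50, SE 0.16, with the empty vector and -0.13 with HOTAIR). UNC5CL was 3.88-fold and 4.16-fold higher in DCIS.COM, with 4 to 12 reads in MCF10A and 40 to 58 in DCIS.COM, and it shares exonic sequence with OARD1 on the same strand.

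Summed over the 28 ligands, the level per length was 277 to 284 CPM per kb in the MCF10A libraries and 122 to 136 in DCIS.COM. Over the 26 receptors it was 195 to 215 in MCF10A and 248 to 292 in DCIS.COM. Neither sum overlapped between the lines, and no test was made of them. The ligand sum is carried by a few abundant genes, with NTN4 alone at 90.05 to 93.99 and 6.12 to 7.56 CPM per kb. Counted by gene, 12 ligands were higher and 9 lower in DCIS.COM with the empty vector (median log2 fold change 0.42), and 14 and 9 with HOTAIR (0.61). The higher ligands include SEMA3D, SEMA6B, SLIT3 and NTN1, which entered the table through DCIS.COM alone. Of the receptors, 10 were higher and 8 lower with the empty vector, and 10 and 10 with HOTAIR. Of all genes, 22.5% were higher and 23.8% lower with the empty vector, and 22% and 21.7% with HOTAIR. NTN4, SEMA3C and EFNB2 were the most abundant ligands in MCF10A with the empty vector (92.7, 54.8 and 36.4 CPM per kb) and PLXNB2 and EPHA2 the most abundant receptors (66.6 and 42.7). In DCIS.COM, EPHA2 led all members in all 4 libraries, at 48.1 to 73.0 CPM per kb.

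Partners of these families outside the symbol rule were examined as a list of 79 genes, 63 of which were in the table. With the empty vector, 12 were higher and 21 lower in DCIS.COM, with a median log2 fold change of -0.25, and with HOTAIR 11 and 23, with a median of -0.34. The shares called, 52.4% and 54%, were near those of all genes (46.3% and 43.7%). NEO1, the netrin and repulsive guidance receptor neogenin, had -0.09 and 0.22 log2 CPM in MCF10A pCDH-empty against 5.54 and 5.50 in DCIS.COM pCDH-empty. RGMA, its ligand, had -1.35 and -1.75 against 4.75 and 4.38. DPYSL3, a cytosolic mediator of semaphorin signals, had 3 and 1 reads against 2089 and 1644. RGMA and DPYSL3 entered the table through DCIS.COM alone, so that their direction was built into their selection. Both count among the partners called higher with either vector. At the other end, the kinase FYN had a log2 fold change of -5.55, FLRT2, a ligand of UNC5 receptors, of -2.90, and the neuropilin ligands VEGFC and VEGFA of -1.92 and -1.57.

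The study asked which genes respond to HOTAIR in each line and, with edgeR, reported more genes in each than the limma fit called here. The few calls below are thus no evidence that HOTAIR changed little. In MCF10A, no member was called between pCDH-HOTAIR and pCDH-empty, where 3 of all genes (0.0218%) were called. At an unadjusted p under 0.05 there were 10 members, 8 higher and 2 lower with HOTAIR, against 7.28% of all genes (4.41% and 2.88%), and limma-voom on the recovered reads called none either. The median log2 fold change was 0.07 over the members and -0.01 over all genes. Both HOTAIR libraries were above both empty-vector libraries for 16 members and below them for 8, against 22.5% and 24.8% of all genes. NRP1 had the smallest p. Its levels were 5.89 and 5.97 log2 CPM with the empty vector and 6.42 and 6.46 with HOTAIR, a log2 fold change of 0.51 (SE 0.08, adjusted p = 0.155). Without DCIS.COM pCDH-empty 1, which enters only the estimate of the spread, the adjusted p was 0.00456, and over all alternatives it ranged from 0.00453 to 0.676. The fold change of 1.42 stayed under the threshold of 1.5.

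The other 7 members with the smallest p in MCF10A were EPHA4 (log2 fold change 0.35), EPHB3 (-0.26), PLXNB1 (0.27), SEMA5A (0.45), PLXNB3 (0.30), SEMA4B (0.22) and PLXND1 (0.31), with adjusted p of 0.411 to 0.589. The 7 plexins, picked out after their values were seen, all had a log2 fold change above 0 (median 0.27), and 4 had an unadjusted p under 0.05, where 4.41% of all genes were higher at that p. In DCIS.COM their median was -0.05, with 1 higher and 2 lower at an unadjusted p under 0.05. The plexins summed to 87.0 and 92.6 CPM per kb with the empty vector and 100.1 and 98.0 with HOTAIR, 2 libraries above 2, which is no call. Ephrins had log2 fold changes of -0.35 to 0.12 and class 3 semaphorins of -0.17 to 0.14, and none of these had an unadjusted p under 0.05. EPHA3 and SEMA3D were at 0 reads in both groups. EPHB1 (0 and 0 against 1 and 0 reads) and SEMA6B (1 and 5 against 0 and 2 reads) could not be compared at this depth.

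**Figure D4:**
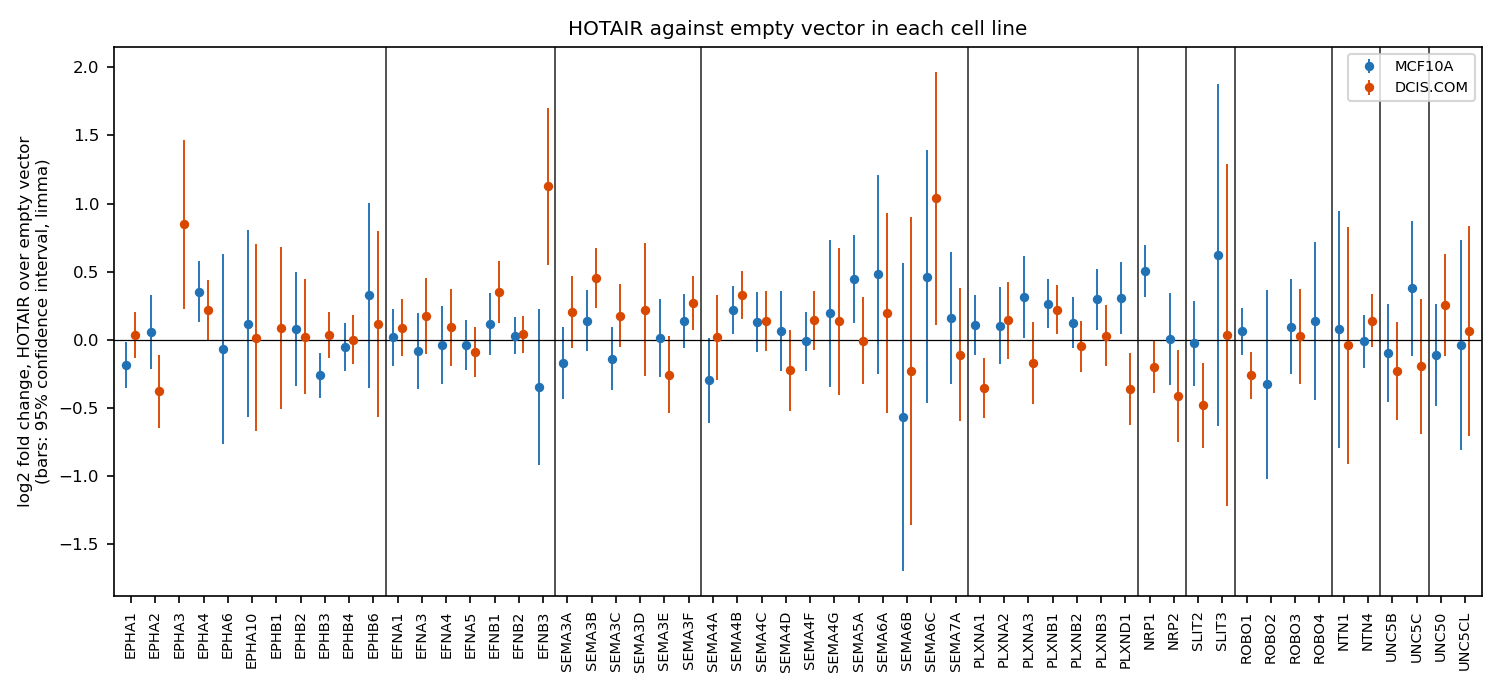
Log2 fold change of pCDH-HOTAIR over pCDH-empty (vertical axis) for the members in MCF10A (blue) and DCIS.COM (orange), with 95% confidence intervals from limma. A gene is left out for a line where both groups had at most 3 reads. Intervals that leave out 0 belong to an unadjusted p under 0.05, and no member passed the adjusted threshold in either line.

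In DCIS.COM, no member was called between pCDH-HOTAIR and pCDH-empty either, where 12 of all genes (0.0871%) were called. At an unadjusted p under 0.05 there were 15 members, 8 higher and 7 lower with HOTAIR, against 17.5% of all genes (9.08% and 8.41%), and limma-voom again called none. Both HOTAIR libraries were above both empty-vector libraries for 17 members and below them for 14, against 24.7% and 24.5% of all genes. The median log2 fold change was 0.04 over the members and 0.01 over all genes. SEMA3B had the smallest p. Its levels were 3.88 and 3.99 log2 CPM with the empty vector and 4.47 and 4.31 with HOTAIR, a log2 fold change of 0.46 (SE 0.10, adjusted p = 0.154, 0.00373 to 0.69 over all alternatives). SEMA4B and EFNB1 had log2 fold changes of 0.33 and 0.35, and PLXNA1, SLIT2, ROBO1 and EPHA2 of -0.35, -0.48, -0.26 and -0.38, with adjusted p of 0.179 to 0.233.

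EFNB3 and EPHA3 belong to the genes that the study lists for HOTAIR in DCIS.COM, a list chosen on these libraries, so that their direction here is not independent evidence. EFNB3, a B-type ephrin, had 15 and 14 reads in MCF10A pCDH-empty, 7 and 8 in MCF10A pCDH-HOTAIR, 19 and 11 in DCIS.COM pCDH-empty and 44 and 39 in DCIS.COM pCDH-HOTAIR. Its log2 fold change in DCIS.COM was 1.13 (SE 0.25, adjusted p = 0.161), and both HOTAIR libraries were above both others. EPHA3 had 29 and 35 reads with the empty vector and 78 and 66 with HOTAIR in DCIS.COM, a log2 fold change of 0.85 (SE 0.27, adjusted p = 0.237). Without DCIS.COM pCDH-empty 2, which leaves pCDH-empty 1 as the only library of its group and assumes that it varies like the other groups, 5 members were called (EFNB3, EPHA3, NRP2, SEMA6C and SLIT2), where 10.2% of all genes were. Without DCIS.COM pCDH-empty 1, no member was called and 0.436% of all genes were.

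The HOTAIR effects of the lines were compared as DCIS.COM minus MCF10A, a comparison in which 6 of all genes (0.0436%) were called at an adjusted p under 0.05. No member was, 11 members had an unadjusted p under 0.05 (3 above and 8 below 0, against 10.5% of all genes, 5.21% above and 5.34% below) and limma-voom called none. NRP1 had the smallest p. Its log2 fold change was 0.51 in MCF10A and -0.20 in DCIS.COM, a difference of -0.71 (SE 0.12, adjusted p = 0.152). Without DCIS.COM pCDH-empty 1 the adjusted p of NRP1 was 0.0178, the only member called, where 0.646% of all genes were. Without DCIS.COM pCDH-empty 2 there were 15 members, where 32.1% of all genes were called. EFNB3 had a difference of 1.47 (SE 0.35, adjusted p = 0.302) and EPHA3 of 0.85 (0.474), although EPHA3 was not read in MCF10A. The differences of PLXND1, PLXNA1, ROBO1, EPHB3, EPHA2 and PLXNA3 were -0.67, -0.46, -0.32, 0.30, -0.43 and -0.48, with adjusted p of 0.307 to 0.450. None of the 63 partner genes was called in any of the 3 HOTAIR comparisons.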

How the data were processed

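RNA-seq was done on 8 libraries, 2 in each of 4 groups. The authors prepared ScriptSeq v2 libraries, aligned reads to hg19 (GRCh37) with Rsubread, counted them per gene with featureCounts on UCSC knownGene and deposited edgeR log2 CPM (counts scaled to library size) of genes above a low-value filter. Versions and the strand setting are not given in the sources used here. The deposited values held whole reads (100% within 0.05 read), which gave depth, bounds and CPM per kb of GRCh37 exon. Since the unit was log2, limma 3.58.1 (R 4.3.3) was fitted to all 13771 genes with 4 group means and a mean-variance trend. The fit was tested first on simulated counts, whose spread between libraries was set and not estimated from these data. That test therefore does not show which HOTAIR effects these libraries could reveal. Calls needed an adjusted p (Benjamini-Hochberg) under 0.05 with a fold change of 1.5 or more, and for the difference between lines the adjusted p alone. Intervals are at 95%. All fold changes are on the deposited scale, with a prior of 0.0717 CPM. Alternatives changed the offset, filter, normalization, thresholds, trend, test, depth and libraries. Members and lists were chosen with earlier results of these data known. Named genes were the members called, at most 30 per comparison by absolute log2 fold change, or the 8 smallest p where fewer were called. Leading members per length, members with wide replicate gaps and spelling matches were also named, and the remaining members for completeness. Promoters came from the RefSeq table of GRCh38.p14. Python 3.11.15 was used.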

Additional observations from a re-analysis of the deposited data

Results flagged for a closer look

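For 8 of the 56 members (14.3%, against 11% of all genes), both HOTAIR libraries lay on 1 side of both empty-vector libraries in MCF10A and on the other side in DCIS.COM. None of these differences passed the threshold of the limma test of the difference itself. The HOTAIR effect in DCIS.COM minus that in MCF10A, in log2, was above 0 for EFNB3 (1.47), SEMA3A (0.37), SEMA3C (0.32) and EPHA1 (0.22). It was below 0 for NRP1 (-0.71), PLXND1 (-0.67), PLXNA3 (-0.48) and PLXNA1 (-0.46). For NRP1 the adjusted p was 0.152 with all libraries and passed the threshold without DCIS.COM pCDH-empty 1. For 7 members (12.5%, against 12.2% of all genes), EPHA4, PLXNB1, SEMA3B, SEMA3F, SEMA4B, SEMA4C and SEMA6C, the libraries were separated in the same direction in both lines.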

How the results depend on the processing

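Leaving out each library in turn gave 0 members called for HOTAIR in MCF10A, 0 to 5 in DCIS.COM and 0 to 15 for the difference between lines, 39 to 42 between the cell lines with the empty vector and 43 to 44 with HOTAIR. The counts above 0 arose without DCIS.COM pCDH-empty 2 (5 and 15 members) and without DCIS.COM pCDH-empty 1 (1 member, NRP1, for the difference). Between the cell lines, all settings gave 33 to 49 members with the empty vector and 34 to 48 with HOTAIR. With the replicate number as a block, the counts were 0, 0, 0, 40 and 44. Replicates of the same number did not deviate together, with correlations of -0.029 to 0.036 across 12222 genes (which are not independent), so that the numbers do not pair the libraries. Of 1522 alternative values for 86 pairs of a named member and a comparison, 1510 kept their direction and side of the threshold, 12 newly passed the threshold and none changed sign. For each comparison between the cell lines, these pairs held only the 30 called members with the largest absolute log2 fold change. Called members with smaller fold changes, nearer the threshold, were left out of them, so that lost calls are under-represented. A fit of only the libraries compared does not apply to the difference. Each group has 2 libraries, and the size of HOTAIR effect that these could show was not measured.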
